A study of Mus musculus with 16 samples.

Results

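The TRAV16 family of TCRα variable (V) segments was described in 8 libraries of TCRα transcripts from unsorted CD8 T cells. A rearrangement was taken as a member when the first V segment listed for it was a TRAV16 segment, which gave 4731 of the 78671 clones in these libraries, a clone being 1 CDR3 nucleotide sequence of 1 library. These clones held 42469 of 815759 reads, or 5.21%, and the libraries held 57455 to 146191 reads each. The libraries came from 4 groups of 2: lymph node (LN) CD8 T cells and SP CD8 thymocytes, each from Themis+/+ and Themis-/- mice. The mice of all 4 groups were on the C57BL/6 background and carried a Foxp3-GFP reporter allele, and the Themis-/- mice lack Themis in the germline. The labels state no ages. Lymph nodes of several mice of a genotype were pooled for sorting according to the methods, while the design text speaks of individual mice, so the p-values measure the spread between libraries, which may be technical. Another 8 libraries of the series held sorted Vα3.2+ cells and are not part of these comparisons. The tables do not measure Themis, so the genotypes rest on the labels.

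A TCRα chain is made when 1 V segment is joined to 1 J segment in a developing thymocyte, with bases trimmed from both ends and others added at the junction. The junction encodes CDR3, the loop that lies over the peptide in the MHC groove, while the V segment alone encodes CDR1 and CDR2. The locus can rearrange again on the same chromosome, each time with a V segment farther upstream and a J segment farther downstream, so V and J positions tend to go together. Mouse V families exist in near-identical copies because part of the V region was duplicated, and names with D or N mark such copies. Themis is a signalling protein of thymocytes that acts in positive selection, the step that tests each new receptor on self peptides.

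The reference genome lists 3 segments of the family. On GRCm38, chromosome 14, plus strand, GENCODE M21 places Trav16d-dv11 at chr14:53047287-53047821, Trav16n at chr14:53351028-53351621 and Trav16 at chr14:53743104-53743705, each as a V gene segment with the leader in its first exon and most of the V domain in its second. The segments lie 304 kb and 392 kb apart from start to start. The last 280 bases of the 3 annotated transcripts are shown because the names of the members rest on them. Capitals mark the 6 positions at which the 3 segments are not all alike.
Trav16d-dv11: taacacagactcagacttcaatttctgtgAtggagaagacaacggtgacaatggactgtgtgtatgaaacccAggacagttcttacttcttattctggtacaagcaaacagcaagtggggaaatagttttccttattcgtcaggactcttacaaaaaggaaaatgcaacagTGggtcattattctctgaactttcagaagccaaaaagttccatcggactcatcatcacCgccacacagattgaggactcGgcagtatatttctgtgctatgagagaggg
Trav16n: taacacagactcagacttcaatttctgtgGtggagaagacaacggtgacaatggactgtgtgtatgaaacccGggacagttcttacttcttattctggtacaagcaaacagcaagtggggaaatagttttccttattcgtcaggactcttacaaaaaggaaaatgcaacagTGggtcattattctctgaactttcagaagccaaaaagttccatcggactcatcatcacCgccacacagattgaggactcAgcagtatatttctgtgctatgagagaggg
Trav16: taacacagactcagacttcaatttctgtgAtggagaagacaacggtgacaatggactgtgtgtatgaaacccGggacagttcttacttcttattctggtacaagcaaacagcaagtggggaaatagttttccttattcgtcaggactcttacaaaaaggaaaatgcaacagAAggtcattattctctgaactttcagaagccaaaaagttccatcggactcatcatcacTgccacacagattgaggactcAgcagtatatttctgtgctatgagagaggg
Within these bases Trav16d-dv11 and Trav16n differed at 3 positions, Trav16d-dv11 and Trav16 at 5, and Trav16n and Trav16 at 4. The last 17 bases, tgtgctatgagagaggg, are the germline start of CDR3 and were the same in all 3. A CDR3 sequence alone therefore cannot tell the members apart.

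The deposited tables named only 2 of the 3 members. TRAV16D-DV11 was the first hit of 2627 clones and TRAV16N of 2104, and TRAV16 was listed for 0 clones at any rank in any of the 16 libraries. Whether TRAV16 rearrangements were present under another member's name cannot be told from the tables. Both members were listed for 4122 of the 4731 clones, and 33 clones had an exact tie. The names of the members did not follow the CDR3 sequences. Of 442 CDR3 nucleotide sequences found in 2 or more libraries, 264, or 59.7%, carried a different member's name in different libraries. Within a library, 2748 pairs of family clones differed by 1 base, and 44.4% of the pairs carried different names, where unrelated names at the members' shares would give 49.3%. The family as a whole is better defined, because 0 of the 73940 clones of other V segments listed a TRAV16 hit at any rank, and 0 family clones listed another family.

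Many clones carried bases that differ from the germline J segment. In the J-encoded part of CDR3, 52.9% of family clones, holding 35.2% of family reads, had at least 1 such difference, against 56.7% of the clones of other V segments. Of 3088 substitutions in family clones, 73.3% read G where the germline has T and 15.4% the reverse. By library the share of family clones with a difference was 53.6% and 47.7% in Themis+/+ LN, 59.4% and 54.6% in Themis-/- LN, 50.6% and 52.1% in Themis+/+ thymocytes and 54.6% and 53.6% in Themis-/- thymocytes. Both Themis-/- libraries were above both Themis+/+ libraries in each tissue. The mean difference of 4.54 percentage points over both tissues had p = 0.0556 in a two-sided exact permutation test, the smallest that test allows. Other V segments moved by 3.79 percentage points (exact permutation p = 0.0556), and the change in the family differed from theirs by 0.758 (exact permutation p = 0.611). In each library, 36.3% to 53.0% of family clones lay 1 base from a more abundant family clone. Of the clones of other V segments, 44.2% to 51.1% lay 1 base from a more abundant clone of other V segments. The family was lower in 6 of 8 libraries. The other V segments hold more clones to match, so no difference is read from these shares. Clone counts below include these variants, and results are also given for the 2227 family clones without a difference from J where the call changed.

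The most widely shared family CDR3 shows the pattern. The 2 sequences below join a segment of the family to TRAJ22 with no added base and differ at the base in capitals, where the first matches the germline J.
TRAJ22 CDR3, germline J: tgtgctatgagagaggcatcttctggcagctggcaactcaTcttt
TRAJ22 CDR3, variant: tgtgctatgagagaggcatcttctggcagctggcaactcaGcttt
The germline form had 64 and 26 reads in Themis+/+ LN, 31 and 207 in Themis-/- LN, 123 and 1 in Themis+/+ thymocytes and 52 and 28 in Themis-/- thymocytes. The variant had 22 and 12, 10 and 65, 42 and 0, and 29 and 12 reads in the same order. In the 7 libraries that held both, the variant stood at 31.4% to 55.8% of the germline form. What made the variants was not tested.

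Family usage did not differ detectably between genotypes or tissues. Fewer cells with the family and less TCRα RNA per cell cannot be told apart in these reads. The family took 6.22% (95% Wilson interval 6.08% to 6.35%) and 4.21% (4.04% to 4.37%) of reads in Themis+/+ LN, and 6.49% (6.30% to 6.68%) and 4.56% (4.41% to 4.70%) in Themis-/- LN. It took 5.37% (5.25% to 5.50%) and 5.35% (5.21% to 5.49%) in Themis+/+ thymocytes, and 4.55% (4.44% to 4.66%) and 4.85% (4.73% to 4.98%) in Themis-/- thymocytes. The 2 libraries of each LN group were farther apart than the groups, and both Themis-/- thymocyte libraries were below both Themis+/+ ones. Intervals cover counting error only, since reads without molecular identifiers are not independent molecules. Among 26 V families the TRAV16 family ranked 7 or 8 by reads in every library.

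**Figure D1:**
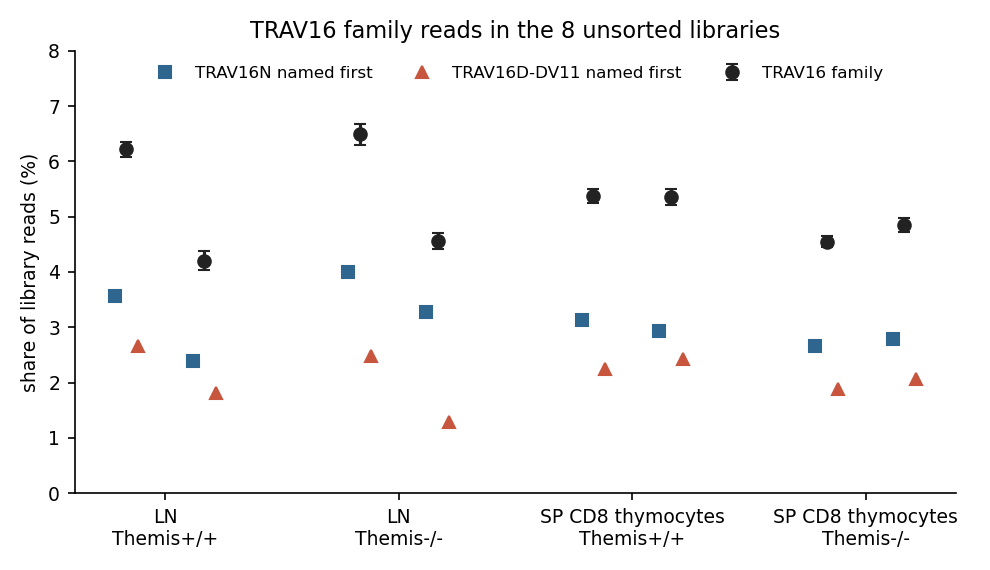
Share of library reads (%) of the TRAV16 family (black, with 95% Wilson intervals) and of clones named TRAV16N (squares) or TRAV16D-DV11 (triangles) in each of the 8 unsorted libraries, by group. The LN libraries spread from 4.21% to 6.49%, and the thymocyte libraries lie between 4.55% and 5.37%.

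In edgeR's quasi-likelihood test over 23 V families, the Themis-/- to Themis+/+ log2 ratio of family reads was 0.03 ± 0.25 (SE, 2 against 2 libraries, adjusted p = 0.911) in LN and -0.15 ± 0.25 (adjusted p = 0.888) in thymocytes. The LN to thymus log2 ratio was 0.03 ± 0.25 (adjusted p = 0.984) in Themis+/+ and 0.20 ± 0.25 (adjusted p = 0.635) in Themis-/- cells, and the interaction of genotype and tissue was 0.17 ± 0.36 (adjusted p = 0.916). The TRAV16 family was called in 0 of the 5 comparisons, where edgeR called 4.35% of families between genotypes in LN and 0% in each of the others. DESeq2 called it in 0 of them, and its unadjusted edgeR p was under 0.05 in 0. In the families as a whole, an unadjusted edgeR p was under 0.05 for 3, 1, 0, 2 and 1 of 23 in the order given, and DESeq2 called 2, 0, 0, 2 and 1. Over the 2 libraries of a group the shares were 5.21% ± 1.42 (SD, n = 2) and 5.52% ± 1.37 in Themis+/+ and Themis-/- LN, and 5.36% ± 0.0149 and 4.70% ± 0.214 in the thymocytes. By distinct clones the family made up 5.32% to 7.19% of the Themis+/+ LN libraries, 5.85% and 6.11% of the Themis-/- LN libraries, 5.99% and 6.29% of Themis+/+ thymocytes and 5.42% and 5.58% of Themis-/- thymocytes.

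Neither named member passed the test in any contrast of genotype or tissue. TRAV16N was first in 3.56% and 2.39% of Themis+/+ LN reads, 4.01% and 3.27% of Themis-/- LN reads, 3.13% and 2.93% of Themis+/+ thymocyte reads and 2.66% and 2.79% of Themis-/- thymocyte reads. TRAV16D-DV11 was first in 2.66% and 1.81%, 2.48% and 1.29%, 2.24% and 2.42%, and 1.89% and 2.06% in the same order. TRAV16N took more reads than TRAV16D-DV11 in each of the 8 libraries but fewer clones in 7 of them. The Themis-/- to Themis+/+ log2 ratio in LN was 0.28 ± 0.31 for TRAV16N (adjusted p = 0.639, edgeR over 114 segments) and -0.25 ± 0.36 for TRAV16D-DV11 (adjusted p = 0.717). Without 1 library the ratio of TRAV16N ranged from 0.08 (without Themis+/+ LN library 2) to 0.75 (without Themis+/+ LN library 1), and that of TRAV16D-DV11 from -0.83 (without Themis-/- LN library 1) to 0.34 (without Themis-/- LN library 2). Over the 5 contrasts edgeR and DESeq2 called 0 of the 2 members, with 0 at an unadjusted edgeR p under 0.05 and 1 in DESeq2 (TRAV16N between tissues in Themis-/- cells), while edgeR called 1.75% of segments between genotypes in LN, 0% in thymocytes, 0% between tissues in Themis+/+ and 2.63% in Themis-/- cells, and 0.877% for the interaction.

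Clones named TRAV16N had more reads in each library, and the difference did not pass the test after adjustment. Reads per clone were 10.9 and 11.2 for TRAV16N and 6.72 and 5.69 for TRAV16D-DV11 in Themis+/+ LN, and 22.3 and 16.4 against 11.3 and 6.67 in Themis-/- LN. In thymocytes they were 8.78 and 10.4 against 5.06 and 7.53 in Themis+/+ and 13.1 and 11.97 against 7.51 and 5.86 in Themis-/-. TRAV16N was higher in 8 of 8 libraries, by 6.07 ± 2.86 reads (SD), with p = 0.00781 in a two-sided exact sign-flip test and an adjusted p of 0.0625 over 8 features. Clones of 1 read made up 22.4% ± 5.54 (SD over 8 libraries) of those named TRAV16D-DV11 and 13.5% ± 3.34 of those named TRAV16N, and the mean share with a difference from J was 56.3% and 49.5%. The part of read errors in the member names was not tested. Mean CDR3 length was 14.8 residues for each member, and 0 of the 8 features differed between members at an adjusted p under 0.05, with 2 at an unadjusted p under that value. One of these was J position, 29.4 for TRAV16D-DV11 and 32.1 for TRAV16N (adjusted p = 0.0938), whose difference changed sign when clones were weighted by reads.

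**Figure D2:**
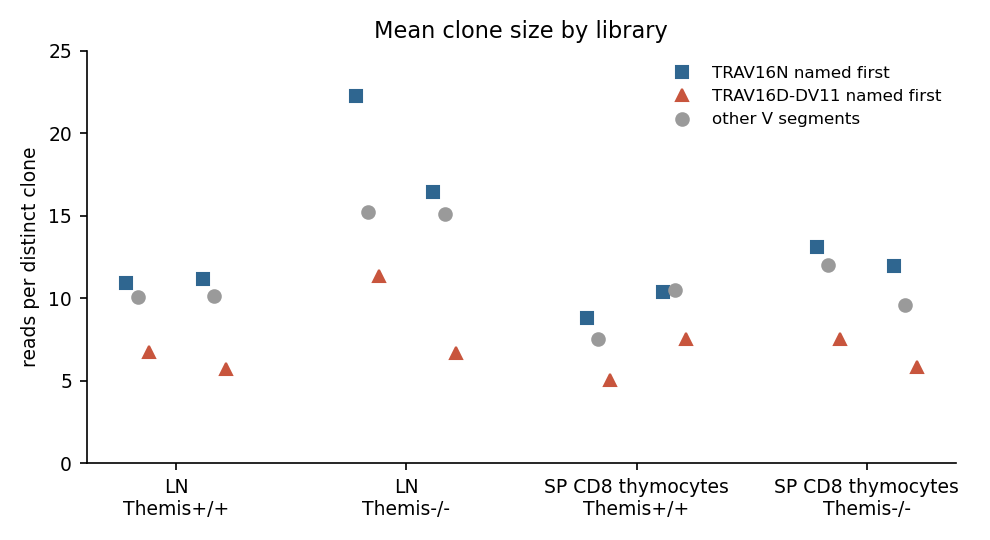
Mean clone size (reads per distinct clone) of clones named TRAV16N (squares), TRAV16D-DV11 (triangles) and of all other V segments (circles) in each of the 8 libraries. TRAV16N lies above TRAV16D-DV11 in every library, and its highest values are the 22.3 and 16.4 reads of the Themis-/- LN libraries.

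Family clones as a whole were smaller than clones of other V segments in 7 of 8 libraries. Family clones had 8.61 and 7.90 reads in Themis+/+ LN, 16.3 and 11.6 in Themis-/- LN, 6.71 and 8.86 in Themis+/+ thymocytes and 9.9985 and 8.29 in Themis-/- thymocytes. Other V segments had 10.1 and 10.1, 15.2 and 15.1, 7.54 and 10.5, and 12.03 and 9.61 reads in the same order. The mean difference was -1.50 ± 1.29 reads (SD, n = 8 libraries, exact sign-flip p = 0.0234, adjusted p = 0.0234). Family clones were larger in both Themis-/- LN libraries than in both Themis+/+ LN libraries, by 5.69 reads, and those of other V segments by 5.11. With 2 libraries a group the exact permutation test cannot pass the threshold. The most abundant clones that made up 50% of family reads were 14.7% and 10.5% of family clones in Themis+/+ LN, 10.9% and 11.04% in Themis-/- LN, 15.6% and 14.1% in Themis+/+ thymocytes and 12.8% and 13.4% in Themis-/- thymocytes. Both Themis-/- thymocyte libraries were below both Themis+/+ ones, while the LN groups overlapped.

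Family CDR3s were longer than those of other V segments in every library. Their mean length was 14.8 and 14.9 residues in Themis+/+ LN, 14.8 and 14.7 in Themis-/- LN, 14.8 and 14.9 in Themis+/+ thymocytes and 14.7 and 14.7 in Themis-/- thymocytes. Clones of other V segments averaged 13.4 to 13.5 residues. The difference was 1.33 ± 0.06 residues (SD, n = 8), and it is given as a description because the V segment encodes the start of CDR3. The commonest length was 15 residues in the family, with 33.2% ± 2.22 of clones (SD over 8 libraries), and 14 residues elsewhere, with 30.2% ± 1.11. Lengths of 13 residues or fewer, which were common elsewhere, were rare in the family: 13 residues made up 8.78% ± 2.17 of family clones and 26.1% ± 1.09 of the others.

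**Figure D3:**
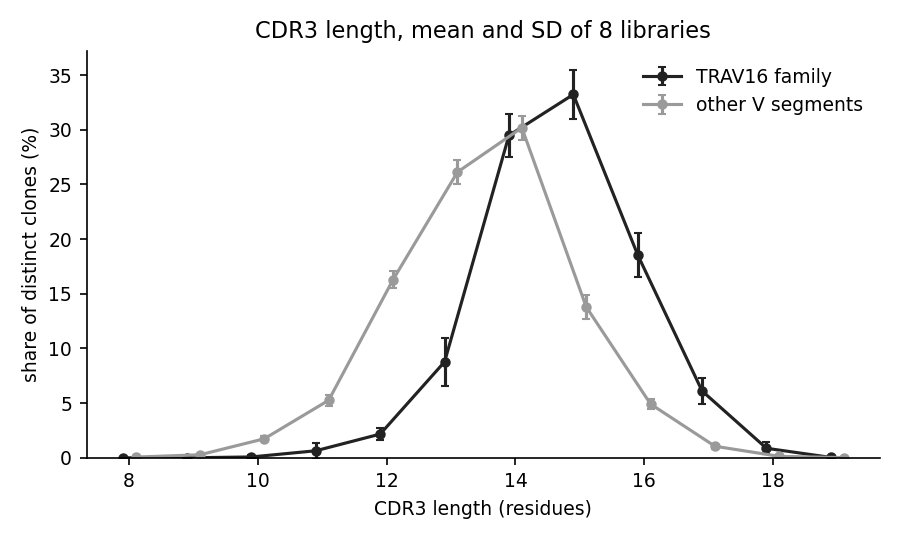
Share of distinct clones (%) at each CDR3 length in residues, for the TRAV16 family (black) and other V segments (grey), as mean and SD over 8 libraries. The family curve peaks at 15 residues (33.2%) and the other at 14 (30.2%).

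The germline start of CDR3 was largely kept. Since the V segment encodes these residues and chose the members, they are a description, and they enter the length, hydropathicity and charge compared here. It reads Cys, Ala, Met, Arg, Glu, and 94.2% of family clones began with the first 4 of these and 72.9% with all 5, while 0.302% of clones of other V segments began with the same 4. All 17 germline bases remained in 2034 clones, or 43.0%, and 2.18% of clones had lost more than 6. At position 4, arginine, a basic residue, was present in 94.8% ± 1.54 of family clones (SD over 8 libraries) and 9.55% ± 0.93 of the others. At position 5, glutamate, an acidic residue, was present in 73.7% ± 3.30 and 8.87% ± 0.92, and aspartate in 6.57% ± 1.17 and 15.9% ± 0.92. Glutamate at position 5 ranged from 70.4% to 79.7% of family clones across the libraries. Themis-/- and Themis+/+ libraries overlapped in each tissue, with means of 75.5% and 75.1% in LN and 71.4% and 72.9% in thymocytes. The germline bases end in gg, the first bases of a glycine codon, at position 6, where glycine made up 40.9% ± 4.80 of family clones and 16.8% ± 0.92 of the others.

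Fewer bases lay between the germline ends of V and J in the family. The count starts at the germline end of the V segment that chose the members. The sign-flip tests here therefore show only that a difference repeats across libraries. Family clones had 2.18 and 2.34 such bases on average in Themis+/+ LN, 2.08 and 1.95 in Themis-/- LN, 2.12 and 2.18 in Themis+/+ thymocytes and 2.05 and 2.00 in Themis-/- thymocytes. The family was below the other V segments in 8 of 8 libraries, by 0.49 ± 0.07 bases (SD, exact sign-flip p = 0.00781, the smallest 8 libraries allow, adjusted p = 0.0125 over 8 features). In both tissues the Themis-/- libraries were below the Themis+/+ libraries. That difference was -0.18 bases over both tissues (exact permutation p = 0.0556, the smallest possible) against -0.22 in other V segments, and the difference between the 2 changes was 0.04 bases (p = 0.389). CDR3s with no added base made up 25.8% of family clones and 22.1% of the others on average over the libraries, higher in 7 of 8 (adjusted p = 0.0234, exact sign-flip test), and the difference did not pass when clones were weighted by reads (adjusted p = 0.156).

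Hydropathicity and net charge also differed from those of other V segments, and both are in part set by the V segment that chose the members, so no test is given. The centre of CDR3, as measured here, begins at position 5, where the germline encodes glutamate. Mean Kyte-Doolittle hydropathicity of the residues left after removing 4 at each end was -1.44 in the family and -1.29 in other V segments, lower in 8 of 8 libraries (difference -0.15 ± 0.04, SD). Net charge, counting lysine and arginine as positive and aspartate and glutamate as negative, was 0.648 in the family and 0.410 in the others, higher in 8 of 8 libraries (0.24 ± 0.04). Family net charge was 0.581 and 0.627 in Themis+/+ LN, 0.665 and 0.675 in Themis-/- LN, 0.555 and 0.624 in Themis+/+ thymocytes and 0.741 and 0.713 in Themis-/- thymocytes. The Themis-/- libraries were above the Themis+/+ libraries in both tissues, by 0.10 on average (exact permutation p = 0.0556, the smallest possible), against 0.08 in other V segments. The difference between these 2 changes was 0.02 (exact permutation p = 0.5). CDR3 length showed the reverse order, with Themis-/- libraries 0.13 residues shorter on average (exact permutation p = 0.0556), against 0.07 in other V segments. The difference between these changes was -0.05 residues (exact permutation p = 0.33).

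The family had 1.19 nucleotide sequences per amino acid CDR3 and the other V segments 1.25, on average over 8 libraries. This ratio rises when segments are pooled: it was 1.10 for TRAV16D-DV11 and 1.12 for TRAV16N alone. The other V segments pool more segments and more clones, so the values are a description and no difference is read from them.

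The J segments of family clones lay nearer to the V segments. J segments are numbered from the end of the locus, so a high TRAJ number lies close to the V segments. The mean TRAJ number of family clones was 33.7 and 30.3 in Themis+/+ LN, 29.1 and 29.0 in Themis-/- LN, 30.3 and 34.6 in Themis+/+ thymocytes and 27.9 and 29.5 in Themis-/- thymocytes. Other V segments averaged 32.2 and 29.3, 26.8 and 27.6, 28.2 and 33.2, and 25.6 and 26.2 in the same order. The family was higher in 8 of 8 libraries, by 1.92 ± 0.73 (SD, exact sign-flip p = 0.00781, adjusted p = 0.0125). Weighted by reads, the difference was 1.31 (adjusted p = 0.0844). It was 2.12 among clones without a difference from J.

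**Figure D4:**
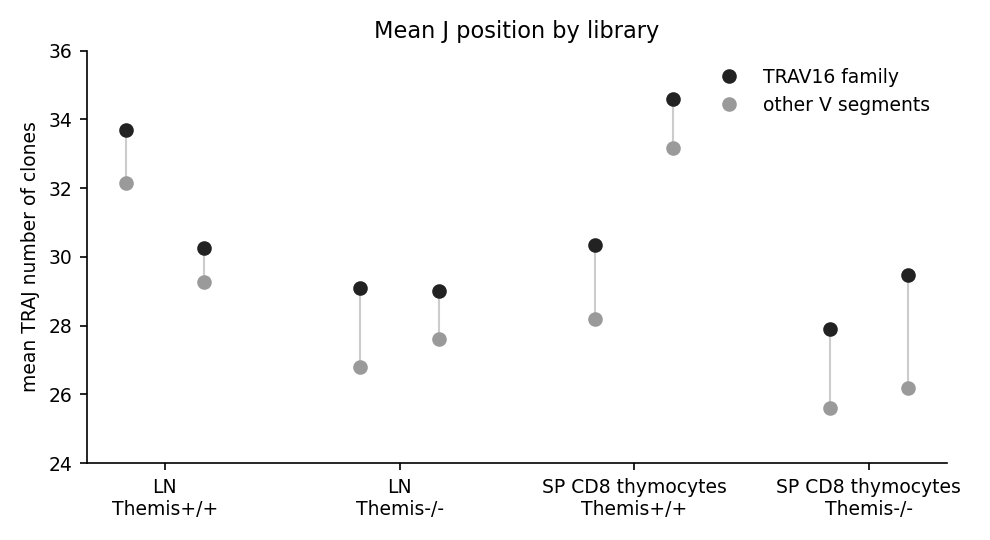
Mean TRAJ number of distinct clones in each of the 8 libraries for the TRAV16 family (black) and other V segments (grey), with a line joining the values of 1 library. The family lies above the other V segments in every library, and both lie lower in Themis-/- than in Themis+/+ libraries of the same tissue.

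In both tissues the Themis-/- libraries used J segments of lower number with the family. The difference in mean TRAJ number was -2.92 in LN and -3.77 in thymocytes, where the exact permutation test of 2 against 2 libraries cannot pass the threshold. Over both tissues it was -3.35 (exact permutation p = 0.0556, the smallest possible). Other V segments moved by -3.52 and -4.79. The change in the family was smaller by 0.80 over both tissues (exact permutation p = 0.111). Between tissues the mean TRAJ number of the family differed by -0.07 (LN minus thymus, exact permutation p = 0.944).

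The J partners of the family were broad. Family clones were found with 43 TRAJ segments, led by TRAJ22 with 6.46% ± 2.07 of family clones (SD over 8 libraries), TRAJ23 with 5.03% ± 0.99, TRAJ49 with 4.70% ± 3.33 and TRAJ40 with 4.69% ± 0.64. In edgeR's test of distinct clones, 5 of 43 J segments, or 11.6%, differed in share between the family and the other V segments at an adjusted p under 0.05. TRAJ53 and TRAJ27 were more used, by a log2 ratio of 1.03 ± 0.26 and 0.75 ± 0.21 (SE, adjusted p = 0.0337 each). TRAJ31, TRAJ13 and TRAJ28 were less used, by -0.66 ± 0.18, -1.08 ± 0.30 (adjusted p = 0.0337 each) and -1.41 ± 0.44 (adjusted p = 0.0496).

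TRAJ27 made up 3.53% and 3.59% of family clones in Themis+/+ LN, 5.26% and 7.57% in Themis-/- LN, 3.50% and 2.86% in Themis+/+ thymocytes and 3.16% and 4.43% in Themis-/- thymocytes. All 8 values were above the 2.10% to 2.53% of TRAJ27 among other V segments. TRAJ53 made up 0.946% to 2.35% of family clones and was above the value of the other V segments in 8 of 8 libraries. TRAJ13 and TRAJ28 were below it in 8 of 8, and TRAJ31 in 7 of 8. TRAJ28 rested on 13 family clones over the 8 libraries, with 0 in 1 of them. Among clones without a difference from J it did not pass (edgeR adjusted p = 0.126). Of the 5, 0 passed the threshold without Themis+/+ LN library 2, Themis+/+ thymocyte library 1 or Themis-/- thymocyte library 2, where edgeR's adjusted p was 0.0531 to 0.0903. The log2 ratios there stayed close to those of all 8 libraries, with 0.93 to 1.04 for TRAJ53, 0.73 to 0.77 for TRAJ27 and -1.06 to -0.95 for TRAJ13. On reads in place of clones 0 were called, with 3 of the 5 at an unadjusted p under 0.05. In clones without a difference from J, 8 of 43, or 18.6%, were called, namely TRAJ13, TRAJ26, TRAJ27, TRAJ31, TRAJ32, TRAJ37, TRAJ50 and TRAJ53. TRAJ27, TRAJ53, TRAJ31 and TRAJ13 were called in both and also by DESeq2.

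**Figure D5:**
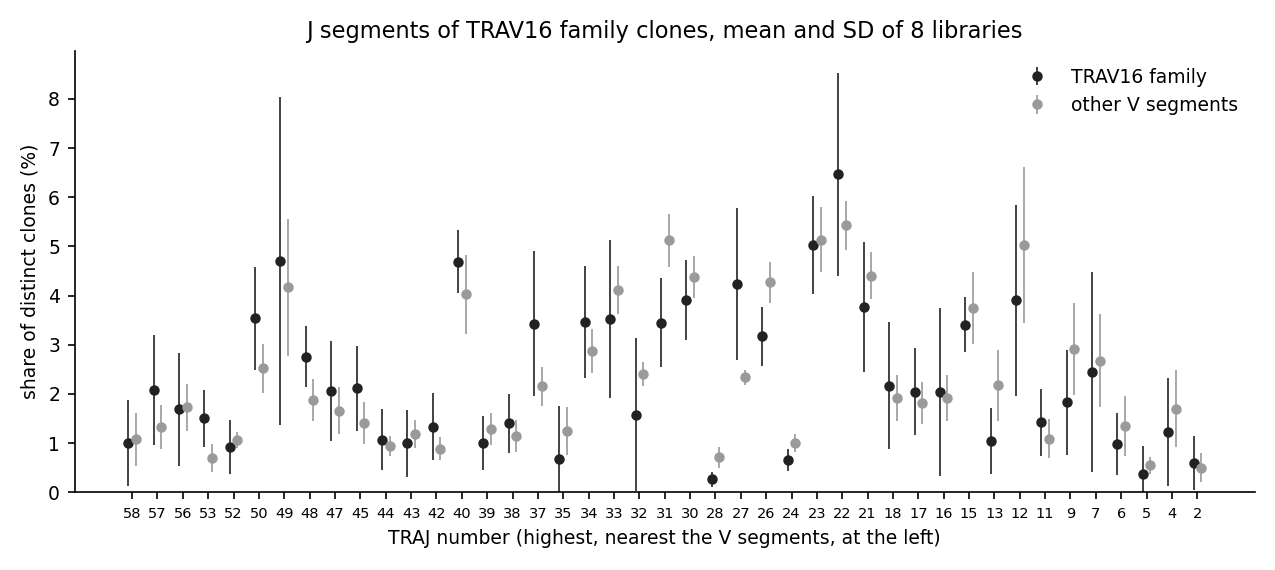
Share of distinct clones (%) with each of 43 TRAJ segments for the TRAV16 family (black) and other V segments (grey), as mean and SD over 8 libraries, ordered by TRAJ number with the highest at the left. TRAJ27 stands at 4.24% in the family and 2.34% elsewhere, and TRAJ31 at 3.45% and 5.13%.

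Some J segments were missing from single libraries. Of 268 combinations of a J segment and a library for which the use by other V segments gave at least 5 family clones, 7 held 0. TRAJ33 was absent from the family in Themis-/- LN library 1, where 11.2 clones were given by the other V segments, and TRAJ35 from Themis+/+ LN library 1, where 12.5 were. These values were not tested.

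The most abundant family clone of each library is shown because these sequences set the upper end of clone size. Capitals mark bases between the germline ends of V and J.
LN Themis+/+ 1, TRAJ45: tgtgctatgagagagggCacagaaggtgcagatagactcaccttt
LN Themis+/+ 2, TRAJ21: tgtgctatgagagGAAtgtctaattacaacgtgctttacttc
LN Themis-/- 1, TRAJ47: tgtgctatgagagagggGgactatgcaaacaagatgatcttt
LN Themis-/- 2 and thymocytes Themis+/+ 1, TRAJ22: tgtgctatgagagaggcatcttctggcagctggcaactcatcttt
Thymocytes Themis+/+ 2, TRAJ53: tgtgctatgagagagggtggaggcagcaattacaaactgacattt
Thymocytes Themis-/- 1, TRAJ22: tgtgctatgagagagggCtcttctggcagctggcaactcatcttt
Thymocytes Themis-/- 2, TRAJ49: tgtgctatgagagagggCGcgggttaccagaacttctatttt
These clones took 0.936% and 12.7% of family reads in Themis+/+ LN, 4.88% and 5.62% in Themis-/- LN, 1.83% and 2.13% in Themis+/+ thymocytes and 4.47% and 4.203% in Themis-/- thymocytes. Each had at most 3 added bases. The TRAJ21 clone of Themis+/+ LN library 2, which encodes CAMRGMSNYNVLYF, had 306 reads, and its sequence was found in 3 of the 8 libraries. The TRAJ22 sequence shared by Themis-/- LN library 2 and Themis+/+ thymocyte library 1 was found in all 8.

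Family CDR3s were shared between libraries about as often as others by amino acid sequence and more often by nucleotide sequence. Of 3044 family amino acid CDR3s, 521, or 17.1%, were in 2 or more libraries and 1 was in 8, against 18.1% of those of other V segments. By nucleotide sequence the share was 10.97% in the family and 8.14% elsewhere, and among clones without a difference from J it was 14.3% and 10.5%. These shares are descriptions, since libraries differ in depth. Among clones without a difference from J, those whose amino acid CDR3 was found in another library had 1.19 to 1.43 bases between V and J on average by library, and those found in 1 library 2.69 to 3.29.

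The 10 family CDR3s in most libraries joined TRAJ22 (4), TRAJ45 (2), TRAJ30 (2), TRAJ12 (1) and TRAJ9 (1). One of the 4 with TRAJ22, the variant shown above, was found only with a difference from J. Sequences are shown for some of the 10, with added bases in capitals, as the most read nucleotide sequence of each CDR3.
TRAJ45, 7 libraries: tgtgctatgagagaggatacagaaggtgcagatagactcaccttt
TRAJ22, 7 libraries: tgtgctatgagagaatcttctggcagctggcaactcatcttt
TRAJ30, 6 libraries: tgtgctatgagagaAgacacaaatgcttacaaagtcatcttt
TRAJ9, 6 libraries: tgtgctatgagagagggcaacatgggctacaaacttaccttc
The TRAJ30 CDR3, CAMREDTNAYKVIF, took 1.31% and 1.20% of family reads in Themis+/+ LN and was at 0 in both Themis-/- LN libraries, with 0.447% and 0.114% in Themis+/+ thymocytes and 0.211% and 0.855% in Themis-/- thymocytes. The TRAJ9 CDR3, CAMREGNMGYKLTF, took 0.0128% and 0% in Themis+/+ LN, 0.185% and 0.977% in Themis-/- LN, 0.0149% and 0% in Themis+/+ thymocytes and 1.44% and 1.07% in Themis-/- thymocytes. Both Themis-/- libraries of a tissue were above both Themis+/+ libraries for the TRAJ9 CDR3. TRAJ9 had the same order among clones of other V segments. Its share there was 1.84% and 2.53% in Themis+/+ LN and 4.40% and 2.90% in Themis-/- LN. In thymocytes it was 2.72% and 1.65% in Themis+/+ and 3.78% and 3.45% in Themis-/-. Within the family the share of TRAJ9 among clones overlapped between genotypes in both tissues. It was 1.32% and 0.980% in Themis+/+ LN and 1.13% and 1.89% in Themis-/- LN. For thymocytes it was 2.40% and 0.672% in Themis+/+ and 2.26% and 3.99% in Themis-/-. By family reads TRAJ9 overlapped in LN, and in thymocytes it took 2.88% and 0.190% in Themis+/+ and 3.01% and 5.84% in Themis-/-. These values were not tested, and a count of 0 allows up to 0.0693% and 0.0814% of family reads in the Themis-/- LN libraries. The longer TRAJ30 CDR3 among the 10 was likewise at 1.59% and 1.49% in Themis+/+ LN and at 0 in both Themis-/- LN libraries. In thymocytes its order was the reverse, with 0.298% and 0.0190% in Themis+/+ and 0.346% and 0.321% in Themis-/-. All TRAJ30 clones together took 5.55% and 2.98% of family reads in Themis+/+ LN and 5.13% and 8.03% in Themis-/- LN. The Themis+/+ LN libraries held 906 and 306 family clones, and the Themis-/- LN libraries 266 and 317. The TRAJ45 CDR3 shown was made by 1 nucleotide sequence with no added base, and 7 libraries held it. It took 0.679% and 0.414% of family reads in Themis+/+ LN and 0.208% and 0% in Themis-/- LN. In thymocytes it took 1.33% and 1.29% in Themis+/+ and 0.978% and 0.125% in Themis-/-. Both Themis-/- libraries of a tissue were below both Themis+/+ libraries, the reverse of the TRAJ9 CDR3. TRAJ45 had the same order among clones of other V segments, with 1.60% to 1.87% in Themis+/+ and 0.961% to 1.10% in Themis-/- libraries. This order was not tested.

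The families whose share of reads moved most like that of TRAV16 over the 8 libraries were TRAV10, TRAV9 and TRAV17, with Pearson correlations of log2 read share of 0.69, 0.38 and 0.35 among 22 families compared. The points share library and depth, and the values are a description. TRAV10 took 1.83% to 3.49% of reads.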

How the data were processed

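TCRα cDNA was made from total RNA by template switching, amplified with constant-region primers and sequenced on a MiSeq, and the authors assembled clones with MiXCR (version not stated). CASAVA 1.4 and mm9 stand in the submitters' processing notes without a role. The deposited tables give read counts per clone, with no molecular identifiers, and the clone fraction, which the authors computed as the count divided by the library total. The 8 unsorted libraries held 57455 to 146191 reads. Reads were summed by first V hit and tested with edgeR 4.0.16 (TMM, quasi-likelihood, at least 10 reads in 2 libraries, Benjamini-Hochberg), with DESeq2 1.42.0 as an alternative. J partners were tested on distinct clones with library as a block. Other features were tested with two-sided exact permutation tests over libraries (Python 3.11.15, SciPy 1.17.1). Scripts were tested on simulated data. TRAV16 was the first hit of no clone, so the planned test of members compared TRAV16D-DV11 with TRAV16N. Named items were all members, up to 5 J segments in each direction past the threshold, the 3 families most alike in usage, the 10 CDR3s in most libraries and the top clone of each library. The members and lists were chosen with earlier results of these data known. Samples were not paired by replicate number in the main tests. Correlations of same-numbered deviations over 114 segments were -0.25 to 0.06. With 2 libraries a group, they cannot show whether same-numbered libraries shared an experiment. The paper states that its repertoire data of each genotype came from 2 experiments.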

Additional observations from a re-analysis of the deposited data

Results flagged for a closer look

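The family was also found in libraries of sorted Vα3.2+ cells, which no comparison used. Those cells were sorted for Vα3.2, which is a different V segment. Themis-/- LN library 2 held 11 family reads of 22047, all in 1 TRAV16N clone with TRAJ58, and Themis+/+ thymocyte library 2 held 4 of 18191, in 1 TRAV16D-DV11 clone with TRAJ7. Both stand above the limit that a count of 0 allows there, 0.0136% and 0.0165% of reads. Themis+/+ LN library 1 held 1 read, and the other 5 sorted libraries held 0. The TRAJ7 sequence was also present in the unsorted Themis-/- thymocyte library 1. The source of these reads was not tested.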

How the results depend on the processing

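Family and member usage passed the threshold under 0 alternatives, so the signs of these log2 ratios are not calls. For the family, Themis-/- against Themis+/+ LN became -0.11 on distinct clones, and -0.10 on reads and -0.12 on distinct clones without a J mismatch. LN against thymus in Themis+/+ became -0.014 without each library's top clone, -0.016 on reads without a J mismatch and -0.060 with no filter. The interaction became -0.043 on distinct clones. For TRAV16D-DV11, genotype in thymus became 0.0066 on distinct clones without a J mismatch. Its tissue ratio in Themis-/- became 0.092 on distinct clones, 0.059 with relative log expression factors, 0.059 with DESeq2 and 0.097 with the 4 libraries alone. In Themis+/+ it became -0.023 with relative log expression factors, -0.078 with no filter and -0.022 with DESeq2, and its interaction 0.082, 0.055 and 0.081 with the same. TRAV16N between tissues in Themis+/+ became -0.0022 on distinct clones and -0.040 with no filter.

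Leaving out 1 library at a time gave family ratios of -0.19 to 0.37 (genotype, LN), -0.013 to 0.43 (tissue, Themis-/-), -0.27 to 0.21 (tissue, Themis+/+) and -0.043 to 0.47 (interaction). TRAV16D-DV11 gave -0.83 to 0.34, -0.60 to 0.53, -0.35 to 0.26 and -0.67 to 0.59 in that order, and TRAV16N between tissues in Themis+/+ -0.33 to 0.30. With the replicate block the family ratios were 0.03 and -0.15 between genotypes in LN and thymus, and the block changed no call.

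The 5 J partners called became 0 on reads, 8 without a J mismatch, 8 with DESeq2 and 0 to 6 without 1 library. Weighted by reads, J position against other V segments was 1.31, and CDR3s without added bases 4.29 percentage points higher, neither past the threshold. J position of TRAV16D-DV11 minus TRAV16N was 3.31 weighted by reads, -0.95 without clones of 1 read and -1.23 without a J mismatch. The cause was not tested. Alternatives on J mismatches and on the members were chosen after seeing the data.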
